A study of Mus musculus with 12 samples.

Results

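The 33 genes described here are the genes that identify fat cells or serve their lipid stores, namely adipokines, lipid droplet proteins, lipases, enzymes of fatty acid and triglyceride handling, and the regulators of fat cell differentiation. They were taken from a list by name, and all 33 of the 55450 genes in the count table had enough counts to be tested, among 20417 tested genes in all. The RNA came from subcutaneous TC2R tumors in C57BL/6 males that were 8 to 10 weeks old. TC2R is the TRAMP-C2 mouse prostate adenocarcinoma line given an activated H-ras by lentivirus, and every group carries this line. The pMCS group received the empty vector pcDNA3.1, the IL-27 group a plasmid for IL-27 with a non-specific peptide at its C-terminus, and the 27pepL group a plasmid for IL-27 with a C-terminal peptide that binds IL-6Rα. All plasmids went into muscle on day 4 with the polymer rNLSd, ultrasound and microbubbles. On day 10 tumors in 27→18 and in 27pepL→18 were injected with recombinant IL-18, and so were those of the IL-18 group, whose plasmid was pMCS. Tumors were taken on day 26, and each group has 2 libraries, each made from a pool of 4 to 6 tumors. No label says that the 2 libraries of a group came from separate animals, so a p-value here measures how far libraries differ, possibly for technical reasons.

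White fat cells store triglyceride in a single large lipid droplet, coat it with perilipins and CIDE proteins, and release fatty acids and glycerol when hormones activate the lipases at its surface. PPARγ and C/EBPα, the transcription factors that drive fat cell differentiation, keep each other expressed and act on many genes of this program. Subcutaneous fat lies beside a tumor implanted under the skin, and the same lipid genes are used at lower levels by macrophages, endothelium, liver and muscle. In RNA from whole tissue, fewer fat cells and less RNA per fat cell cannot be told apart.

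The fat cell genes followed single libraries rather than groups. IL-27 replicate 1 held the highest level of 33 of 33 genes, pMCS replicate 2 the second highest of 29, and 27→18 replicate 1 the third highest of 22. Summed over the 33 genes, the level in CPM, the count scaled to sequencing depth with TMM library factors, was 19220 in IL-27 replicate 1 and 237.2 in IL-27 replicate 2. The sum was 1834 in pMCS replicate 2 and 235.7 in pMCS replicate 1. It was 669.9 in 27→18 replicate 1, 357.8 in IL-18 replicate 1, and between 217.6 and 288.5 in the remaining 6 libraries. Thus the IL-27 and pMCS groups each hold 1 library with high fat cell genes and 1 at the common low level.

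**Figure D1:**
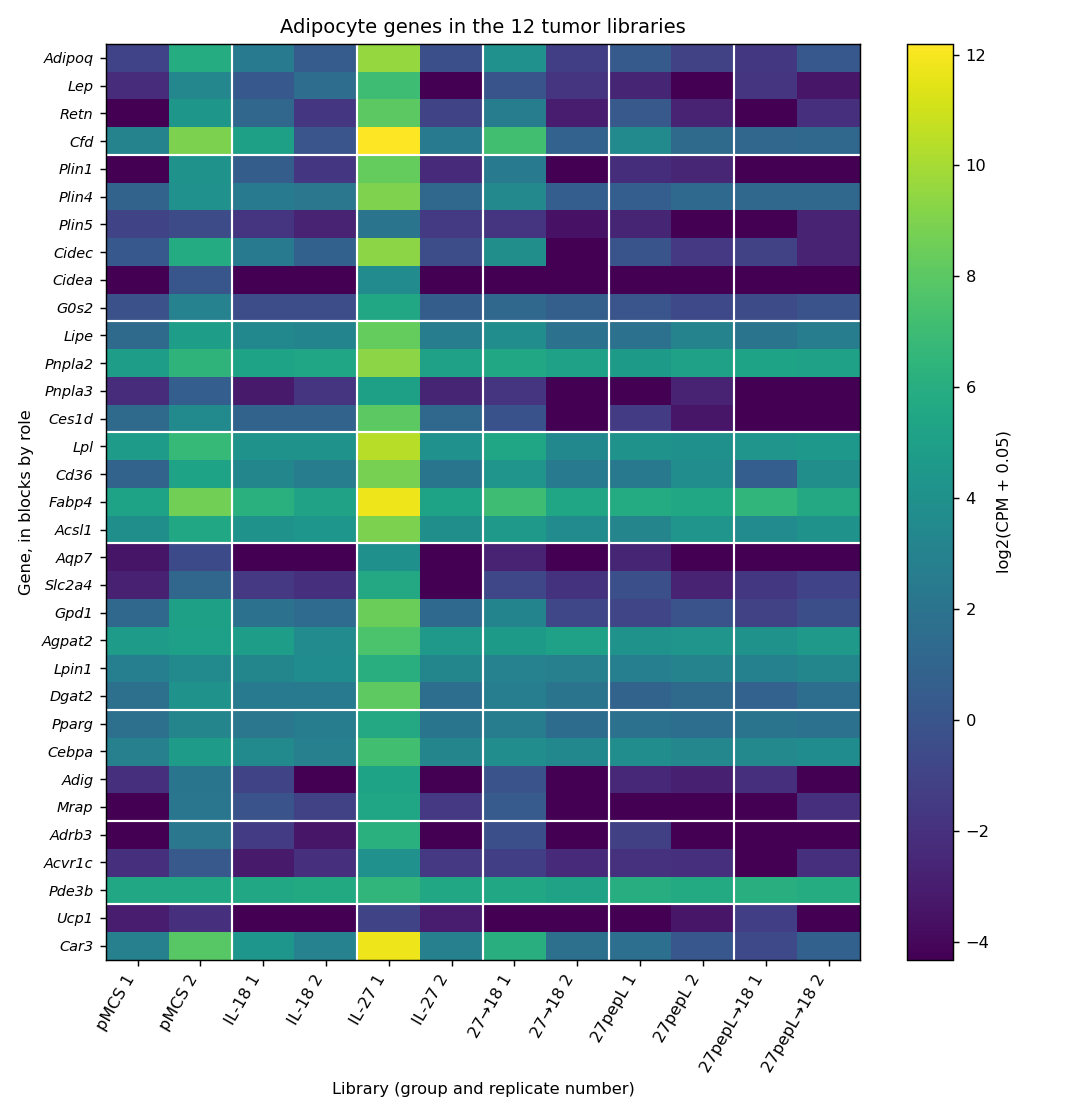
Level of each of the 33 adipocyte genes (rows, in blocks by role) in each of the 12 libraries (columns, 2 per group), as log2 of CPM plus 0.05. The column of IL-27 replicate 1 is the brightest in every row, pMCS replicate 2 follows in 29 rows, and the rows of Pde3b and Ucp1 vary least with those libraries.

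Among the adipokines, Adipoq, which encodes the fat cell hormone adiponectin, stood at 765.4 CPM in IL-27 replicate 1 and 0.761 in IL-27 replicate 2. Its level was 59.4 CPM in pMCS replicate 2 and 0.449 in pMCS replicate 1. In the IL-18 group it was 5.48 and 1.33 CPM, in 27→18 it was 15.97 and 0.365, in 27pepL 1.23 and 0.434, and in 27pepL→18 0.273 and 1.11 CPM. The 2 libraries of IL-27 therefore lie above and between the 2 of pMCS, and the groups overlap.

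Cfd, which encodes the complement protease adipsin made by fat cells, reached 4676 CPM in IL-27 replicate 1 and 484.8 CPM in pMCS replicate 2. Its other levels were 5.88 CPM in IL-27 replicate 2, 8.23 in pMCS replicate 1, 33.5 and 0.986 in IL-18, 147.0 and 1.79 in 27→18, 11.2 and 2.58 in 27pepL, and 2.19 and 2.27 in 27pepL→18. Cfd split the replicates of IL-18 and 27→18 as well, with replicate 1 high in both.

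Lep, the gene of the appetite hormone leptin, stood at 131.9 CPM in IL-27 replicate 1 and at 0 counts in IL-27 replicate 2. It was at 10.1 CPM in pMCS replicate 2 and 0.166 in pMCS replicate 1, at 1.12 and 2.94 in IL-18, at 0.923 and 0.231 in 27→18, at 0.116 and 0 in 27pepL, and at 0.234 and 0.0486 in 27pepL→18. In IL-18 the order of the replicates was the reverse of that of Adipoq. The ratio of Lep to Adipoq CPM was 0.172 in IL-27 replicate 1, 0.171 in pMCS replicate 2 and 0.204 in IL-18 replicate 1, but 2.21 in IL-18 replicate 2 and 0.0578 in 27→18 replicate 1.

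Retn, which encodes resistin, stood at 262.7 CPM in IL-27 replicate 1 and 0.483 in replicate 2, and at 21.8 CPM in pMCS replicate 2 with 0 counts in replicate 1. Its level was 2.16 and 0.262 CPM in IL-18, 6.17 and 0.077 in 27→18, 1.16 and 0.0965 in 27pepL, and 0 and 0.194 in 27pepL→18. Retn thus ordered the libraries much as Adipoq did.

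The droplet coat gave the same picture. Plin1, the perilipin that guards the fat cell droplet from lipases, was at 319.5 CPM in IL-27 replicate 1 against 0.149 in replicate 2, and at 17.9 CPM in pMCS replicate 2 against 0 counts in replicate 1. Its level was 1.44 and 0.262 CPM in IL-18, 5.21 and 0 in 27→18, 0.174 and 0.121 in 27pepL, and 0 in both libraries of 27pepL→18. Against the pMCS mean, the 2 empty libraries of 27pepL→18 mean a level at least 189-fold lower, counting the floor as 3 counts per library, and pMCS replicate 1 was equally empty.

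Cidec, which helps droplets fuse into 1 large droplet, was at 625.4 CPM in IL-27 replicate 1 and 0.705 in replicate 2. It was at 57.8 CPM in pMCS replicate 2, 1.13 in pMCS replicate 1, 5.49 and 1.72 in IL-18, 14.3 and 0 in 27→18, 0.926 and 0.277 in 27pepL, and 0.41 and 0.0971 in 27pepL→18. Cidea, a related protein of brown fat in mice that white fat holds at low levels, had counts in 2 libraries alone, with 12.2 CPM in IL-27 replicate 1 and 1.02 in pMCS replicate 2. Plin4, a perilipin of white fat, was at 504.7 CPM in IL-27 replicate 1 and 2.34 in replicate 2, at 16.2 in pMCS replicate 2 and 1.87 in replicate 1, at 5.77 and 4.73 in IL-18, at 10.9 and 1.48 in 27→18, at 1.45 and 2.47 in 27pepL, and at 2.24 and 2.36 CPM in 27pepL→18. Its IL-27 libraries thus lie above and between those of pMCS, as with Adipoq. The other coat genes were Plin5, a perilipin of oxidative tissues that stayed between 0 and 4.12 CPM, and G0s2, the inhibitor of the lipase ATGL, from 0.567 to 46.5 CPM.

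The promoters of 4 genes, Adipoq, Cfd, Plin1 and Lep, are shown. All had their 2 highest levels in IL-27 replicate 1 and pMCS replicate 2, and Cebpa is in the same list. The Cebpa protein binds the palindrome TTGCGCAA and similar sequences. TTGCNNAA, the form searched, is a palindrome only as TTGCGCAA. Each line gives the 250 bases before the RefSeq transcription start, in GRCm38.p6 and read 5′ to 3′ toward the start, with matches to TTGCNNAA on either strand in capitals. RefSeq windows were matched for 22 of the 33 genes.
Adipoq (chr16:23146286-23146535, plus strand): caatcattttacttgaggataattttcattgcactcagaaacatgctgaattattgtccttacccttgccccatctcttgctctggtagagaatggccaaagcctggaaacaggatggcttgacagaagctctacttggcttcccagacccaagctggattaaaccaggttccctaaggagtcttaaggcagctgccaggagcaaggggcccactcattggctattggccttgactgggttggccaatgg
Cfd (chr10:79890603-79890852, plus strand): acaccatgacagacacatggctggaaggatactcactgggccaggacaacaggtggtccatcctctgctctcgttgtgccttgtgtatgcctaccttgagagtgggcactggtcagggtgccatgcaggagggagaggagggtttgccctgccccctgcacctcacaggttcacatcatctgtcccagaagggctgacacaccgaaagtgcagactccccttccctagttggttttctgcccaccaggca
Plin1 (chr7:79732777-79733026, minus strand): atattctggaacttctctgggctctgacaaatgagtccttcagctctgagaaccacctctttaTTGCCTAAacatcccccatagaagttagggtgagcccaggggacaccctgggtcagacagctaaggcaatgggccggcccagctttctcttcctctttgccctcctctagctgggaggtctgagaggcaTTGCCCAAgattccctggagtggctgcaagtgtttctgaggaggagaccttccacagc
Lep (chr6:29059971-29060220, plus strand): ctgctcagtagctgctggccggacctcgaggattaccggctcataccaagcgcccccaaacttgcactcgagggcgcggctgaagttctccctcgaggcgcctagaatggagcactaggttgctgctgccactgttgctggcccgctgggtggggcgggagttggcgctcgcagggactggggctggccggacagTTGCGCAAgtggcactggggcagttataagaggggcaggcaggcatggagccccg
Lep holds 1 match, which begins 55 bases before the start and is the full palindrome TTGCGCAA, and Plin1 holds 2. TTGCNNAA occurred in the windows of 4 of the 22 genes (Lep, Plin1, Cidec and Pparg), a share of 18.2% beside 10.8% of all 27025 genes with a window. TTGCGCAA, which is contained in the wider form, occurred in Lep alone among the 22 and in 0.185% of all genes. The core motif of nuclear receptors such as PPARγ, AGGTCA on either strand, occurred in 7 of the 22 (Plin5, Cd36, Aqp7, Lpin1, Pparg, Adig and Ucp1), 31.8% beside 15.8% of all genes. A match describes the letters of the window and is not a binding site.

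Among the lipases, Lipe, the hormone-sensitive lipase, was at 307.6 CPM in IL-27 replicate 1 and 6.37 in replicate 2, and at 30.8 CPM in pMCS replicate 2 and 2.53 in replicate 1. Its level was 10.3 and 8.57 CPM in IL-18, 13.8 and 3.58 in 27→18, 3.5 and 8.34 in 27pepL, and 4.12 and 6.15 in 27pepL→18. Pnpla2, which encodes ATGL, the lipase of the first step of triglyceride breakdown, had a high base in all tumors. It was at 631.3 CPM in IL-27 replicate 1 and 35.5 in replicate 2, at 86.0 in pMCS replicate 2 and 29.9 in replicate 1, at 38.7 and 42.7 in IL-18, at 47.1 and 35.0 in 27→18, at 25.9 and 35.7 in 27pepL, and at 38.7 and 35.6 CPM in 27pepL→18. Outside IL-27 replicate 1 and pMCS replicate 2 the Pnpla2 levels thus kept within a narrow band. Pnpla3, a triglyceride hydrolase of fat and liver, was at 33.5 CPM in IL-27 replicate 1 and 0.111 in replicate 2, at 1.45 in pMCS replicate 2 and 0.166 in replicate 1, at 0.0648 and 0.237 in IL-18, at 0.237 and 0 in 27→18, at 0 and 0.0965 in 27pepL, and at 0 in both libraries of 27pepL→18. Ces1d, a carboxylesterase of fat and liver, was at 263.1 CPM in IL-27 replicate 1 and 2.32 in replicate 2, at 11.8 in pMCS replicate 2 and 2.51 in replicate 1, at 1.88 and 1.85 in IL-18, at 0.86 and 0 in 27→18, at 0.318 and 0.0482 in 27pepL, and at 0 in both libraries of 27pepL→18. For Ces1d, unlike Pnpla2, the 6 low libraries were those of 27→18, 27pepL and 27pepL→18.

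Genes of fatty acid uptake peaked in the same libraries. Fabp4, the fatty acid binding protein of fat cells that macrophages and capillaries also express, was at 3478 CPM in IL-27 replicate 1 and 38.1 in replicate 2, and at 401.7 CPM in pMCS replicate 2 and 37.7 in replicate 1. Its level was 70.7 and 37.0 CPM in IL-18, 134.2 and 44.2 in 27→18, 57.5 and 45.2 in 27pepL, and 95.2 and 50.01 in 27pepL→18. Lpl, the lipoprotein lipase that frees fatty acids from blood lipoproteins, was at 1390 CPM in IL-27 replicate 1 and 16.1 in replicate 2, at 108.7 in pMCS replicate 2 and 27.6 in replicate 1, at 17.2 and 17.6 in IL-18, at 42.4 and 10.5 in 27→18, at 17.8 and 15.6 in 27pepL, and at 19.8 and 22.6 CPM in 27pepL→18. IL-27 replicate 2 thus lies below both pMCS libraries for Lpl. Cd36, a fatty acid transporter, was at 439.4 CPM in IL-27 replicate 1 and 4.14 in replicate 2, at 38.4 in pMCS replicate 2 and 1.82 in replicate 1, at 9.61 and 6.15 in IL-18, at 19.5 and 5.29 in 27→18, at 5.03 and 13.9 in 27pepL, and at 1.5 and 14.4 CPM in 27pepL→18. Acsl1, which activates fatty acids with coenzyme A, was at 491.9 CPM in IL-27 replicate 1 and 14.9 in replicate 2, at 44.7 in pMCS replicate 2 and 14.9 in replicate 1, at 16.9 and 20.5 in IL-18, at 23.1 and 12.7 in 27→18, at 9.27 and 19.4 in 27pepL, and at 12.2 and 17.2 CPM in 27pepL→18. Cd36 and Acsl1 differed in that the other libraries of Cd36 spread widely, also within 27pepL→18, while those of Acsl1 lay close together.

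The enzymes of triglyceride synthesis differed in how far they followed the high libraries. Gpd1, which makes glycerol phosphate, was at 361 CPM in IL-27 replicate 1 and 2.49 in replicate 2, at 33.9 in pMCS replicate 2 and 2.32 in replicate 1, at 3.61 and 2.69 in IL-18, at 8.57 and 0.519 in 27→18, at 0.492 and 0.868 in 27pepL, and at 0.41 and 0.729 CPM in 27pepL→18. Dgat2, of the last step of triglyceride synthesis, was at 274.2 CPM in IL-27 replicate 1 and 3.06 in replicate 2, at 18.1 in pMCS replicate 2 and 3.33 in replicate 1, at 5.72 and 5.56 in IL-18, at 6.6 and 4.06 in 27→18, at 1.88 and 2.56 in 27pepL, and at 1.76 and 3.12 CPM in 27pepL→18. Both libraries of 27pepL and both of 27pepL→18 lie below both of pMCS for either gene. Agpat2 and Lpin1, of the middle steps, had a base that all tumors shared. Agpat2 was at 186.1 CPM in IL-27 replicate 1 and 23.5 in replicate 2, at 32.3 in pMCS replicate 2 and 26.7 in replicate 1, at 30.3 and 12.5 in IL-18, at 25.7 and 35.3 in 27→18, at 16.8 and 19.3 in 27pepL, and at 18.2 and 24.5 CPM in 27pepL→18. Lpin1 was at 67.9 CPM in IL-27 replicate 1 and 9.73 in replicate 2, at 11.2 in pMCS replicate 2 and 6.81 in replicate 1, at 9.5 and 13.1 in IL-18, at 7.89 and 7.39 in 27→18, at 6.99 and 8.44 in 27pepL, and at 7.43 and 9.37 CPM in 27pepL→18. For these genes pMCS replicate 2 did not stand clear of the other libraries. Slc2a4, the insulin-responsive glucose transporter GLUT4, was at 49.6 CPM in IL-27 replicate 1 and at most 2.18 elsewhere, and Aqp7, the glycerol channel of fat cells, at 15.9 CPM and at most 0.605 elsewhere.

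Of the regulators, Pparg was at 50.9 CPM in IL-27 replicate 1 and 4.21 in replicate 2, and at 9.02 CPM in pMCS replicate 2 and 3.34 in replicate 1. It was at 4.62 and 6.08 CPM in IL-18, 6.23 and 2.87 in 27→18, 3.69 and 3.12 in 27pepL, and 4.12 and 3.52 in 27pepL→18. Cebpa was at 148.8 CPM in IL-27 replicate 1 and 9.1 in replicate 2, at 26.8 in pMCS replicate 2 and 7.17 in replicate 1, at 11.9 and 7.41 in IL-18, at 13.6 and 10.6 in 27→18, at 13.5 and 10.1 in 27pepL, and at 10.7 and 13.3 CPM in 27pepL→18. Both regulators had counts in every library, unlike Adig, the small protein adipogenin. Adig was at 37.6 CPM in IL-27 replicate 1 and at 0 counts in replicate 2 of IL-27, IL-18, 27→18 and 27pepL→18. Mrap, the accessory protein of the ACTH receptor, was at 41.8 CPM in IL-27 replicate 1 and 0.278 in replicate 2, at 4.34 in pMCS replicate 2 and 0 in replicate 1, at 0.891 and 0.437 in IL-18, at 1.27 and 0 in 27→18, at 0 in both libraries of 27pepL, and at 0 and 0.194 CPM in 27pepL→18.

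Adrb3, the β3-adrenergic receptor through which noradrenaline starts lipolysis in mouse fat, was at 71.4 CPM in IL-27 replicate 1 and 0 counts in replicate 2, and at 4.67 CPM in pMCS replicate 2 and 0 in replicate 1. It was at 0.308 and 0.0499 CPM in IL-18, 0.785 and 0 in 27→18, 0.391 and 0 in 27pepL, and 0 in both libraries of 27pepL→18. Acvr1c, the activin receptor ALK7 of fat cells, ranged from 0 to 16.6 CPM. Pde3b, the phosphodiesterase through which insulin restrains lipolysis, was the exception among the signaling genes. It was at 94.9 CPM in IL-27 replicate 1 and 47.8 in replicate 2, at 45.2 in pMCS replicate 2 and 47.8 in replicate 1, at 48.5 and 53.0 in IL-18, at 45.4 and 36.3 in 27→18, at 61.8 and 55.2 in 27pepL, and at 66.9 and 59.6 CPM in 27pepL→18.

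Car3, a carbonic anhydrase abundant in fat, muscle and liver, was at 3423 CPM in IL-27 replicate 1 and 7.2 in replicate 2, and at 239.1 CPM in pMCS replicate 2 and 7.33 in replicate 1. Its level was 20.5 and 8.08 CPM in IL-18, 67.7 and 3.39 in 27→18, 3.17 and 1.06 in 27pepL, and 0.585 and 1.69 in 27pepL→18. Ucp1, the uncoupling protein that makes brown and beige fat produce heat, was nearly absent, at 0.482 CPM in IL-27 replicate 1, 0.0743 in IL-27 replicate 2, 0.071 and 0.19 in pMCS, 0 in both libraries of IL-18 and of 27→18, 0 and 0.0482 in 27pepL, and 0.371 and 0 in 27pepL→18. Per kilobase of exon, Cfd ranked first of the 33 in both IL-27 replicate 1 (5072 CPM per kilobase) and pMCS replicate 2 (525.9), followed by Fabp4, Car3, Adipoq and Cidec in both, while Ucp1 ranked last in both.

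In the 2 high libraries the excess over the common level kept a similar order. The excess of a gene was taken as its CPM minus its median over the 8 libraries other than IL-27 replicate 1, pMCS replicate 2, 27→18 replicate 1 and IL-18 replicate 1. Plin5 (0.558 CPM) and Aqp7 (0.605 CPM) had an excess under 1 CPM in pMCS replicate 2, and Pde3b and Ucp1 were left out as well. For the 29 remaining genes the excess in IL-27 replicate 1 was 6.5 times (G0s2) to 36.1 times (Plin4) that in pMCS replicate 2, with a median of 13.1.

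The spread within replicate pairs was set beside that between groups on log2 CPM with a prior count of 2. Within the IL-27 pair the median absolute difference over the 33 genes was 6.81 on the log2 scale, with quartiles of 5.03 and 9.0, beside 0.741 over all tested genes. Within the pMCS pair it was 3.24, with quartiles of 1.9 and 5.08, beside 0.496. As linear CPM, the 27 genes with counts in IL-27 replicate 2 were higher in replicate 1 by a median of 89.5-fold, from 1.98-fold for Pde3b upward.

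Replicate 1 was the higher of the IL-27 pair for 33 of 33 genes, and replicate 2 the higher of the pMCS pair for 32 of 33, Pde3b being the exception. The median difference was 1.94 within 27→18 beside 0.512 over all genes, and replicate 1 was the higher for 30 genes. Within the IL-18 pair it was 0.641 beside 0.38 and within the 27pepL pair 0.782 beside 0.621, so the genes differed more than other genes there too. Within 27pepL→18 it was 0.49 beside 0.556.

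**Figure D2:**
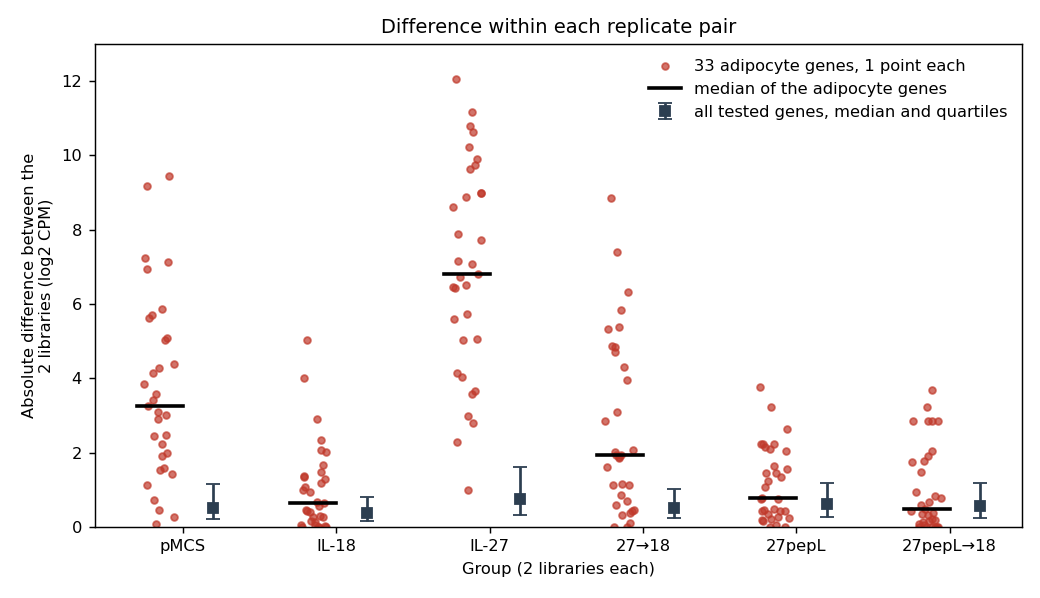
Absolute difference in log2 CPM between the 2 libraries of each group, with 1 red point for each of the 33 adipocyte genes, a black bar at their median, and a square with quartiles for all 20417 tested genes. The median is 6.81 in IL-27, 3.24 in pMCS and 1.94 in 27→18, and lies between 0.49 and 0.782 in the other 3 groups.

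The within-pair standard deviation of the 33 genes had a median of 2.57 on the log2 scale, beside 0.607 over all tested genes. The standard deviation of the 6 group means had a median of 1.6, beside 0.37. The first exceeded the second for 31 of the 33 genes, the exceptions being Plin5 and Ces1d. The medians over all tested genes had the same order, and the share of all genes with it was not counted. A mean of 2 libraries varies less than a single library, so this order can arise where groups do not differ. The share of the sum of squares that lay between groups had a median of 39.6% for the 33 genes, with quartiles of 32% and 50.8%, and 38.6% for all tested genes. Adipocyte genes thus varied more than other genes within pairs, and their share between groups was close to that of all genes. Each group mean carries part of the spread within its pair. The wider spread of group means among adipocyte genes therefore does not by itself show a difference between groups. Without IL-27 replicate 2 the median share was 82.9%. IL-27 replicate 1 then has no partner, and its whole deviation counts as between groups. That value therefore cannot show a difference between groups.

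Among genes whose log2 CPM averaged at least 1 over the libraries, the share between groups was smallest for Cd36 (22.5%), Fabp4 (28.4%) and Adipoq (29.5%). It was largest for Pde3b (57.3%), Gpd1 (53.5%) and Car3 (53.3%). Over all 33 genes it was smallest for Slc2a4 (8.36%) and largest for Ces1d (76.9%) and Plin5 (67.5%), whose log2 CPM averaged below 1. Pde3b combined its share with the smallest within-pair standard deviation of the 33, at 0.311 on the log2 scale.

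The question whether IL-27 delivery changed these genes was addressed against pMCS. All 33 genes had a fitted log2 fold change above 0, with a median of 3.37, while the median over all genes was 0.001. In the edgeR quasi-likelihood test, 0 of the 33 passed an adjusted p of 0.05 (0% of all genes did), and 0 did with DESeq2 either (0.151% of all genes). At the thresholds the study used, an unadjusted p under 0.05 and a change of more than 2-fold, 8 genes were higher, beside 3.44% of all genes. These were Plin4, Pnpla2, Lpl, Acsl1, Agpat2, Lpin1, Dgat2 and Pparg. The fitted log2 fold change was 4.81 ± 1.9 (SE) for Plin4, 2.52 ± 1.0 for Pnpla2, 3.37 ± 1.47 for Lpl and 2.11 ± 0.72 for Lpin1, with an adjusted p of 1 for each in edgeR. Adipoq, with 3.68 ± 2.58, had an unadjusted p of 0.186.

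For none of the 33 genes were both IL-27 libraries above both pMCS libraries, a pattern that 10.7% of all genes showed. Without IL-27 replicate 1, 31 of the 33 fitted changes were below 0, with a median of -2.28, and 2 genes (Lep and Slc2a4) passed the study's thresholds, beside 2.27% of all genes. That change of direction included Plin4 at -1.95, Pnpla2 at -0.70, Lpl at -2.08, Acsl1 at -0.99, Agpat2 at -0.31, Dgat2 at -1.81, Pparg at -0.54 and Adipoq at -5.29, while Lpin1 stayed above 0 at 0.13. Without IL-27 replicate 2 all 33 stayed above 0, 22 passed the study's thresholds (12% of all genes) and 8 passed an adjusted p of 0.05 in edgeR (1.91% of all genes). Without pMCS replicate 1, 0 passed the study's thresholds (1.55% of all genes). Without pMCS replicate 2 the median was 6.36 and 18 passed (5.01% of all genes). With both IL-27 replicate 1 and pMCS replicate 2 left out, 19 of the 31 genes that could be fitted were above 0, the median was 0.06, and 0 passed.

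**Figure D3:**
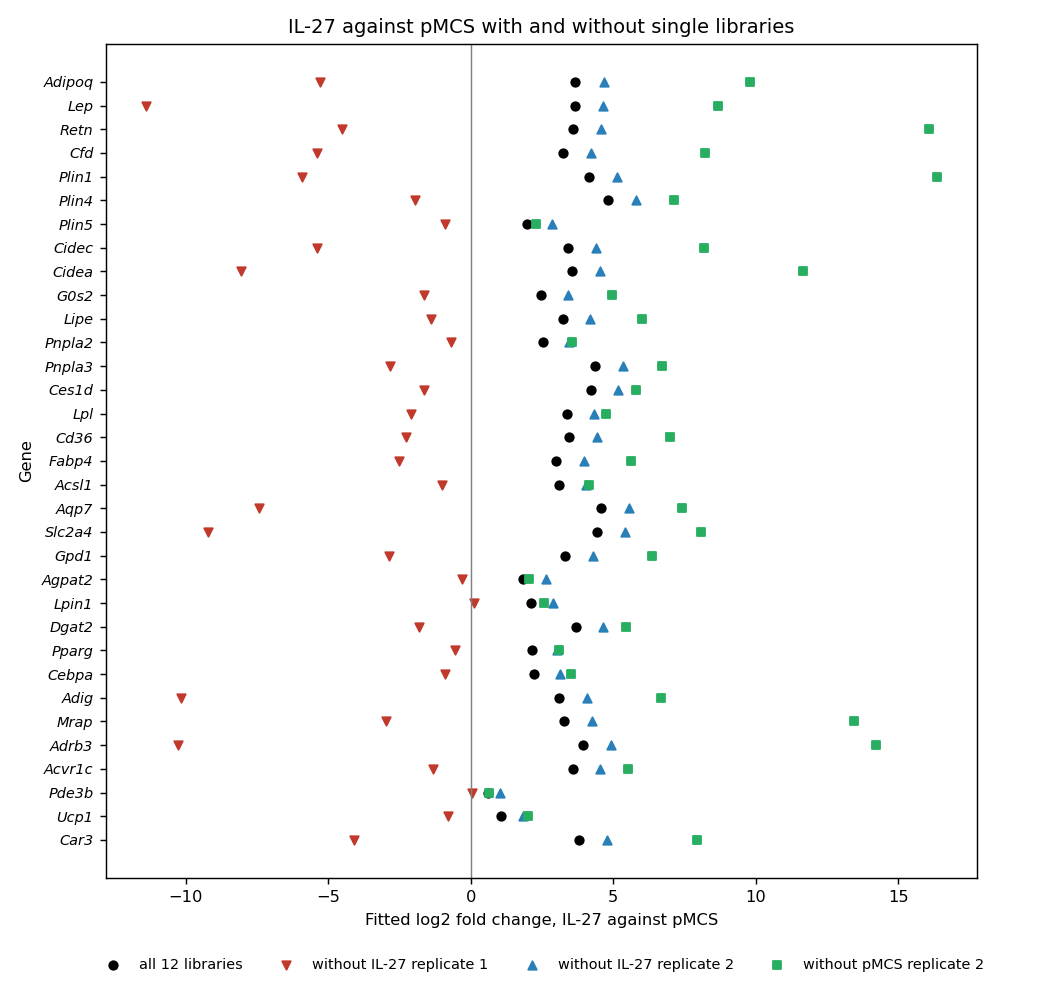
Fitted log2 fold change of each adipocyte gene for IL-27 against pMCS with all 12 libraries and with 1 library left out. All 33 black circles lie above 0 and 31 of the 33 red triangles, which leave out IL-27 replicate 1, lie below it. Sizes for genes at 0 counts in a remaining group depend on the prior count.

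The other comparisons against pMCS share the same 2 control libraries, so the high level of pMCS replicate 2 enters each of them. For IL-18, 31 of the 33 genes were fitted lower, with a median log2 fold change of -2.03. At an unadjusted p under 0.05 there were 0 calls, 0 passed the study's thresholds (2.48% of all genes in either direction) and 0 an adjusted p of 0.05 (0% of all genes). DESeq2 called Cidea and Aqp7 (0.212% of all genes), both at 0 counts in the 2 IL-18 libraries. Without pMCS replicate 2, 23 of the 33 were fitted higher. The count at the study's thresholds was 1 without pMCS replicate 1 (1.15% of all genes), 2 without IL-27 replicate 1 (2.98%) and 4 without IL-27 replicate 2 (2.89%). For 27→18, 32 were fitted lower, with a median of -1.73, and 0 passed the study's thresholds (2.31%), an unadjusted p of 0.05 or an adjusted p of 0.05 in edgeR (0.235%). DESeq2 called Cidea (0.823% of all genes), and without pMCS replicate 2, 26 genes were fitted higher. The median for 27→18 was -3.81 without 27→18 replicate 1 and -0.82 without its replicate 2.

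For 27pepL against pMCS, the median log2 fold change was -2.50, and 4 genes were lower at the study's thresholds, beside 2.54% of all genes. Ces1d had a log2 fold change of -5.30 ± 2.21 (SE), Gpd1 one of -4.73 ± 2.04 and Car3 one of -5.87 ± 2.53. Mrap was at 0 counts in both 27pepL libraries, at least 54.5-fold below the pMCS mean, and also at 0 in pMCS replicate 1. In edgeR 0 of the 33 passed an adjusted p of 0.05 (0.255% of all genes), and DESeq2 called Cidea (1.07%). Both 27pepL libraries lay below both pMCS libraries for 12 of the 33 genes, beside 14.6% of all genes. Without pMCS replicate 2 the log2 fold change was -3.75 for Ces1d, -1.72 for Gpd1, -1.76 for Car3 and 0 for Mrap. The median log2 fold change of the 33 was 0 without pMCS replicate 2, -3.05 without 27pepL replicate 1 and -2.52 without 27pepL replicate 2.

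For 27pepL→18 against pMCS, the median was -2.73, and 4 genes were lower at the study's thresholds, beside 2.16% of all genes. Gpd1 had a log2 fold change of -4.98 ± 2.07 (SE) and Car3 one of -6.74 ± 2.64. Ces1d and Pnpla3 were at 0 counts in both 27pepL→18 libraries, at least 151-fold and at least 17-fold below the pMCS mean. In edgeR 0 genes passed an adjusted p of 0.05 (0.23% of all genes), the smallest adjusted p being 0.937 for Ces1d. DESeq2 called Plin1, Cidea, Ces1d, Aqp7 and Adrb3, all at 0 counts in this group, beside 0.984% of all genes. Both libraries lay below both of pMCS for 11 of the 33 genes, beside 15% of all genes. Without pMCS replicate 2 the log2 fold change was -1.975 for Gpd1 and -2.638 for Car3, and Ces1d and Pnpla3 stayed below 0. The median log2 fold change of the 33 was -2.51 without 27pepL→18 replicate 1 and -3.75 without its replicate 2. It was -3.51 without pMCS replicate 1 and 0 without pMCS replicate 2.

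Liver markers were low in both groups with lower calls, and also in 27→18, which had 0. The 10 liver markers summed to between 211.1 and 339.1 CPM in the 6 libraries of the groups pMCS, IL-18 and IL-27, but to between 1.44 and 5.57 CPM in 27→18, 27pepL and 27pepL→18, with Alb, the gene of serum albumin, at 0 counts in those 6 libraries. The sums in 27→18 were 2.27 and 3.41 CPM. Outside IL-27 replicate 1 and pMCS replicate 2, Ces1d was at 1.85 to 2.51 CPM in pMCS replicate 1, IL-27 replicate 2 and IL-18. It was at most 0.86 CPM in the 6 libraries that lack Alb. These libraries were not matched for Adipoq, which was at 5.48 CPM in IL-18 replicate 1 and 15.97 in 27→18 replicate 1. Gpd1 was at 2.32 CPM in pMCS replicate 1 and 2.49 in IL-27 replicate 2 but between 0.41 and 0.868 CPM in 27pepL and 27pepL→18, and Car3 was at 7.33 and 7.2 CPM in those 2 libraries but between 0.585 and 3.17 in 27pepL and 27pepL→18. In 27→18, Gpd1 was at 8.57 and 0.519 CPM and Car3 at 67.7 and 3.39 CPM, so its replicate 1 lay above pMCS replicate 1 for both. Liver markers differ with the groups here, and their part in the lower levels of Ces1d, Gpd1 and Car3 was not tested. In IL-27 replicate 1 and replicate 2 the liver sums were 324 and 339.1 CPM, so liver markers were close within the pair whose fat cell genes differed most.

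**Figure D4:**
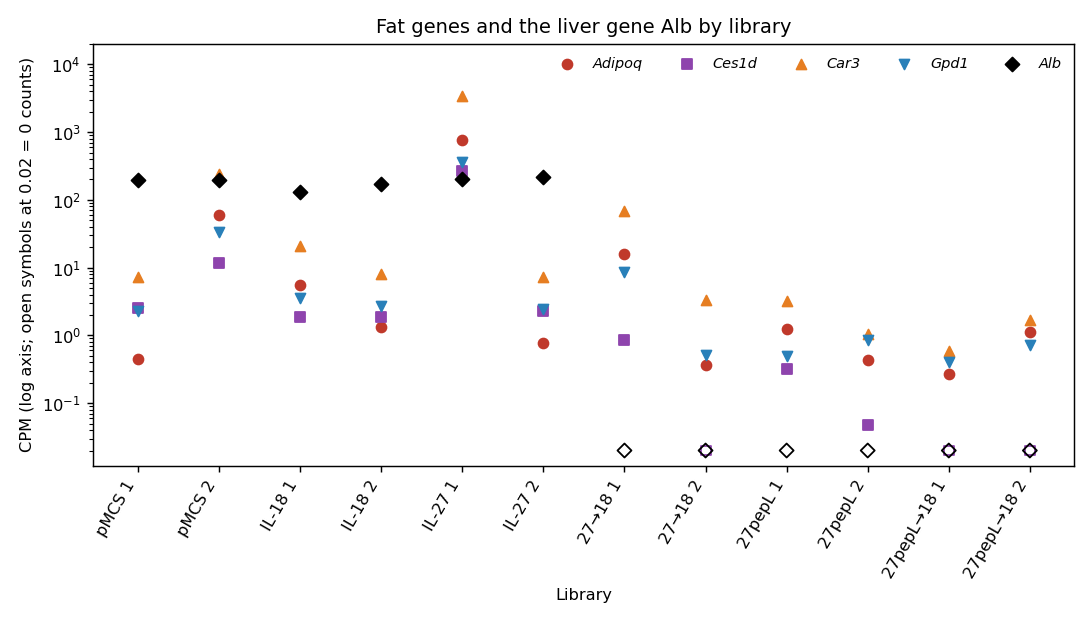
CPM of Adipoq, Ces1d, Car3, Gpd1 and the liver gene Alb in each library on a log axis, with open symbols for 0 counts. Alb is present in the 6 libraries of IL-27, IL-18 and pMCS, but at 0 in the other 6, while Adipoq peaks in IL-27 replicate 1 and pMCS replicate 2.

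Against IL-27 the directions changed with 1 library. For 27→18 against IL-27, 33 of 33 genes were fitted lower, with a median log2 fold change of -5.02, and 19 passed the study's thresholds, beside 2.95% of all genes. In edgeR 0 passed an adjusted p of 0.05 (0.245% of all genes), and with DESeq2 5 did (1.14%). Both libraries were lower than both of IL-27 for 5 genes, beside 9.81% of all genes. Without IL-27 replicate 1, 26 genes were fitted higher, with a median of 0.79. The median was -4.39 without 27→18 replicate 2 and -5.99 without IL-27 replicate 2. For 27pepL against IL-27, 33 were fitted lower, with a median of -5.96, and 27 passed the study's thresholds, beside 4.45% of all genes. In edgeR 0 passed an adjusted p of 0.05 (0.245% of all genes), the smallest being 0.53 for Dgat2. The edgeR exact test called Gpd1 and Dgat2 (0.911% of all genes), and DESeq2 called 17 (1.65%). Both libraries were lower for 13 genes, beside 13.6% of all genes. Without IL-27 replicate 1 the median was -0.10, and 13 genes were fitted higher. The median was -7.4 without 27pepL replicate 1, -6.2 without 27pepL replicate 2 and -6.9 without IL-27 replicate 2.

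Over all 6 groups at once, 24 of the 33 genes had an unadjusted p under 0.05 for any difference, beside 3.36% of all genes, and 0 had an adjusted p under 0.05 in edgeR, beside 0.269%. The smallest adjusted p was 0.468, for Ces1d, and a likelihood ratio test in DESeq2 called 14 (2.03% of all genes). Without IL-27 replicate 1 the number with an unadjusted p under 0.05 was 4 (2.94% of all genes), and without IL-27 replicate 2 it was 32 (8.98%), with 14 past an adjusted p of 0.05 in edgeR (1.25%).

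Most other fat genes behaved alike. Of 25 further adipocyte genes, 4 (Rbp4, Npr3, Acacb and Aoc3) were higher in IL-27 against pMCS at the study's thresholds, beside 3.44% of all genes. There were 0 lower, and the median log2 fold change was 2.11. In 27pepL, Thrsp and Rbp4 were lower (2.54% of all genes), and in 27pepL→18 Pck1 and Rbp4 (2.16%). In 27→18 Rbp4 was lower, beside 2.31% of all genes in either direction. These groups had 0 higher calls, and IL-18 had 0 calls (2.48% of all genes in either direction). In edgeR 0 of the 25 passed an adjusted p of 0.05 in any of these comparisons. Scd1, the stearoyl-CoA desaturase, was at 4501 CPM in IL-27 replicate 1 and 154.4 in replicate 2, and at 695.4 in pMCS replicate 2 and 130.8 in replicate 1. Plin2, the perilipin of many cell types, was at 183.8 CPM in IL-27 replicate 1 and 220 in replicate 2, so the ubiquitous droplet coat did not follow the fat cell one. Angptl4, a secreted inhibitor of lipoprotein lipase, was likewise at 316.7 and 443.1 CPM in that pair. Plin3, Cebpb and Cebpd did not have their highest level in IL-27 replicate 1 either, unlike the rest of the 25 genes.

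Of the 11 genes of brown and beige fat, 10 were tested and 0 passed the study's thresholds against pMCS. Of all genes, 2.31% to 4.22% passed in either direction in those comparisons. Cox8b, a cytochrome oxidase subunit of brown fat and muscle, was at 18.1 CPM in IL-27 replicate 1, 2.54 in pMCS replicate 2 and 0.748 in 27→18 replicate 1, with 0 counts in the other 9. Kcnk3, Cpt1b, Ebf2, Otop1 and Dio2 also had their highest level in IL-27 replicate 1, at 9.17, 5.42, 6.39, 2.09 and 1.89 CPM beside at most 0.985, 1.88, 2.34, 0.709 and 1.19 CPM in any other library. Prdm16, Cox7a1 and Zic1 did not. Ppargc1a and Elovl3, of thermogenic fat, were at 0.821 and 0.339 CPM in IL-27 replicate 1, within their range in the other libraries. Among 8 genes of preadipocytes and fat stroma, the summed level was 1023 CPM in IL-27 replicate 1 and between 238.9 and 513.3 CPM elsewhere. Dlk1 was the 1 gene of that list called against pMCS, higher in IL-18 and in 27pepL.

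Markers of other cells also stood out in IL-27 replicate 1. The 8 macrophage markers summed to 2330 CPM there and to 379.4 in IL-27 replicate 2, with 272.7 to 940.9 CPM over the other 10 libraries. Of these markers, 5 (Adgre1, Csf1r, Fcgr1, C1qa and C1qb) were higher in IL-27 than in pMCS at the study's thresholds, beside 3.44% of all genes. For each of these 5, IL-27 replicate 2 lay below pMCS replicate 2. Of the 9 T cell markers, 2 (Cd4 and Cd5) passed the same thresholds. In edgeR 0 of either list passed an adjusted p of 0.05 (0% of all genes). The 9 T cell markers summed to 123 CPM in IL-27 replicate 1 and 6.51 in replicate 2, with 7.12 to 22.2 elsewhere, the 8 B cell markers to 17.2 CPM beside 0.687 to 5.6, and the 8 endothelial markers to 397.9 CPM beside 125.7 to 256.5. The 6 epithelial and tumor line markers were at their lowest sum there, 62.3 CPM beside 66.4 to 161.3. In pMCS replicate 2 the macrophage sum was 505.6 CPM and the T cell sum 15.9. Skeletal muscle markers summed to 200.9 and 59.2 CPM in 27→18 but to 6.81 in IL-27 replicate 1 and 5.36 in pMCS replicate 2, so muscle RNA was low in the 2 libraries with the most fat cell RNA. The 8 keratinocyte markers summed to 20.7 CPM in IL-27 replicate 1 and 9.08 to 18.2 elsewhere. Krt5, Krt1 and Flg were at 0 counts in every library and Krt14 in every library but 1, while Sbsn was at 14.6 CPM in IL-27 replicate 1 beside 0.661 to 4.41, and Lor was lowest there. The lymph node stroma markers summed to 21.6 CPM in pMCS replicate 2 and 16.2 in IL-27 replicate 1. Their leading gene was the chemokine Ccl21a in the former, at 15.7 CPM beside 0.143 in the latter, and the chemokine Cxcl13 in the latter, at 14.8 beside 5.63 CPM. The part of the other cell types in the levels of the 33 genes was not tested.

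Some of the 33 genes share exon sequence with a neighbor, and the sources do not state whether counting used the strand. In GENCODE M21, 7 genes shared exon bases with another gene, among them Adrb3 (18.8% of its exon bases), Lipe (15.7%), Gpd1 (13.4%) and Pnpla3 (8% with a gene on the same strand).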

How the data were processed

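The authors deposited 1 table of gene counts for the 12 libraries, whole numbers with no scaling that were used as raw counts. Per the study's methods and the submitters' processing notes, stranded poly(A) libraries were checked with FastQC 0.11.3, aligned with HISAT2, quantified with StringTie and tested with edgeR. The build, the annotation and the counting step were not given in the sources used here. Library totals ran from 49844915 to 76620862 counts, so that 3 counts, used as the floor, are 0.0392 to 0.0602 CPM before TMM scaling.

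The analysis used edgeR 4.0.16 in R 4.3.3. After filterByExpr by group and TMM scaling, the quasi-likelihood model took group as its term and all 12 libraries as data, and Benjamini-Hochberg adjustment ran over the 20417 genes that were left. The common dispersion was 0.343, with 6 residual and 3.43 prior degrees of freedom, and the fit was tested on simulated data. The SE of a log2 fold change is its absolute value divided by the root of F. All 33 genes are named. Every library's value is given for 14 genes chosen by name and for those past the study's thresholds against pMCS. It is also given for the 3 smallest and 3 largest shares between groups among genes whose log2 CPM averaged at least 1. Other genes in the text were chosen after their values were seen. The genes and lists were chosen with earlier results of these data known. Gene names were matched for 55450 of 55450 identifiers, lengths are from GENCODE M21 and promoters from RefSeq GRCm38.p6. Alternatives were the edgeR exact test, DESeq2 1.42.0 on the filtered genes, RLE scaling, library totals alone, a replicate block, only the compared groups, genes unfiltered for low counts, a prior count of 0.5 for the spread and each library left out, and leaving out IL-27 replicate 1 and pMCS replicate 2 together was added after the data were seen.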

Additional observations from a re-analysis of the deposited data

Results flagged for a closer look

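Of the 33 genes, 2 moved in opposite directions when IL-18 was added to different plasmids, with libraries that did not overlap, and the difference between these moves was not tested. They are 6.06% of the 33, beside 8.23% of all 20417 tested genes with such a pattern. Lpl was lower with IL-18 than with pMCS alone, at 17.2 and 17.6 CPM against 27.6 and 108.7 CPM, and higher in 27pepL→18 than in 27pepL, at 19.8 and 22.6 CPM against 17.8 and 15.6 CPM. Pde3b was higher with IL-18 than with pMCS alone, at 48.5 and 53.0 CPM against 47.8 and 45.2 CPM, and lower in 27→18 than in IL-27, at 45.4 and 36.3 CPM against 94.9 and 47.8 CPM. With 2 libraries per group no library could be checked as an outlier of its own group.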

How the results depend on the processing

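Under RLE scaling and library totals alone no count of called genes moved by more than 1.5 times, and under these and a prior count of 0.5 no median spread moved by more than 1 SD. Library totals gave 7 rather than 8 genes in IL-27 (Pparg at an unadjusted p of 0.0532 in edgeR), 28 rather than 27 for 27pepL against IL-27 and 23 rather than 24 for any difference, and RLE gave 26 for 27pepL against IL-27. The counts below are of the 33 genes past the study's thresholds unless called adjusted. With no filter on low counts they were 21 in IL-18, 30 in IL-27, 19 in 27→18, 26 in 27pepL and 26 in 27pepL→18 against pMCS and 32 in 27→18 against IL-27, and the adjusted counts were 15, 30, 11, 19, 21 and 30, with 31 for 27pepL against IL-27 and 31 for any difference. In that fit of 31054 genes the prior degrees of freedom were estimated as infinite, so a gene's own spread had no weight. Between 2 groups, 4.04% to 7.51% of all genes passed the study's thresholds, and for any difference 10.2% had an unadjusted p under 0.05. With any difference included, 0.937% to 6.1% passed an adjusted p. With the compared groups alone the counts were 2 for IL-18 (3.44% of all genes), 0 for IL-27 (1.06%) and 8 for 27pepL (3.35%). For 27→18 against IL-27 the count was 1 (2.26%). The exact test gave 8 for 27pepL→18 (3.31%) and an adjusted count of 2 for 27pepL against IL-27 (0.911%). DESeq2 gave 3, 14, 1, 10 and 13 against pMCS in the same order, beside 3.26% to 6.81% of all genes, with adjusted counts of 2 for IL-18, 1 for 27→18, 1 for 27pepL, 5 for 27pepL→18, 5 and 17 for the 2 comparisons with IL-27 and 14 for any difference. Beyond the fits described, the cause of these differences was not tested.

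The replicate numbers are only shared numbers. Deviations of same-numbered libraries correlated between -0.282 and 0.343 over 15 pairs of groups, above 0.1 in 6. With a replicate block the counts were 1 in IL-27 (2.54% of all genes), 1 in 27→18 (2.16%) and 7 in 27pepL→18 (2.65%). For any difference the count was 7 (2.33%).

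With each library left out in turn, a lone library being assumed to vary like the other groups, counts ranged from 0 to 4 in IL-18, 0 to 22 in IL-27, 0 to 2 in 27→18, 0 to 12 in 27pepL and 1 to 16 in 27pepL→18 against pMCS, 1 to 32 for 27→18 and 1 to 31 for 27pepL against IL-27, and 4 to 32 for any difference. The adjusted counts ranged from 0 to 8 for IL-27 and for 27→18 against IL-27, 0 to 14 for 27pepL against IL-27 and for any difference, and were 0 for the others. The median share between groups ranged from 37.9% to 82.9%. It was highest without IL-27 replicate 2, where the lone IL-27 replicate 1 counts in full as between groups. Fitted log2 fold changes for IL-27 against pMCS ranged from -5.29 to 9.8 for Adipoq, -1.95 to 7.15 for Plin4, -0.70 to 3.54 for Pnpla2, -2.08 to 4.74 for Lpl, -0.99 to 4.15 for Acsl1, -0.31 to 2.65 for Agpat2, -1.81 to 5.44 for Dgat2 and -0.54 to 3.11 for Pparg, and Mrap in 27pepL from -11.2 to 0. Without IL-27 replicate 1 and pMCS replicate 2 together the counts were 0 for IL-27, 0 for 27pepL, 1 for 27pepL→18, 2 and 1 for 27→18 and 27pepL against IL-27 and 3 for any difference, and the log2 fold changes in IL-27 were -0.74 for Lpl, -0.14 for Agpat2 and -0.08 for Dgat2, with 0 for Mrap in 27pepL.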

Other observations

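Outside the 33 genes, the 20 named genes whose log2 CPM was most like the mean of the 33 over the 12 libraries had a Pearson r from 0.921 to 0.982, and 4 of them (Scd1, Trarg1, Sncg and Aoc3) are on the list of further adipocyte genes. These correlations share the same libraries and rest largely on the 2 high ones. Hp, the gene of haptoglobin, was the closest among these 20 genes once IL-27 replicate 1 and pMCS replicate 2 were left out, with r at 0.933 beside 0.926 over all 12. It was at 1134 CPM in IL-27 replicate 1 and 15.9 in replicate 2, at 479.7 CPM in pMCS replicate 2 and 18.4 in replicate 1, at 67.1 and 21.4 in IL-18, and at 172.8 and 5.62 CPM in 27→18. For Trf, the gene of transferrin, r was 0.951 over 12 libraries and 0.624 without those 2, with 774.3 CPM in IL-27 replicate 1 and 116 in pMCS replicate 2. C3, the central complement component, was at 1099 CPM in IL-27 replicate 1, 113.6 in pMCS replicate 2 and between 18.7 and 68.3 CPM in the other 10.

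Pck1 and Thrsp, of glycerol and lipid synthesis in fat and liver, resembled Ces1d in being low in 27pepL and 27pepL→18. Pck1 was at 433.2 CPM in IL-27 replicate 1 and 36.8 in pMCS replicate 2, at 2.51 CPM in pMCS replicate 1 and 2.62 in IL-27 replicate 2, at 4.6 and 0 in 27→18, and between 0 and 0.795 CPM in 27pepL and 27pepL→18. Thrsp was at 229.6 CPM in IL-27 replicate 1 and 13.2 in pMCS replicate 2, at 3.38 and 4.05 CPM in their partners, at 1.16 and 0 in 27→18, and between 0 and 0.55 CPM in 27pepL and 27pepL→18. Liver markers were low in those groups, and their part in these levels was not tested.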
